A study of Sus scrofa with 2 samples.

Results

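The genes described here encode the factors that start protein synthesis. Members were all gene symbols in the count tables that begin with EIF1, EIF2, EIF3, EIF4, EIF5 or EIF6, and 46 of 31908 genes met this rule. The data are single-nucleus RNA sequencing counts from the pancreas of 2 Bama miniature pigs, with 1 library from a wild-type (WT) animal and 1 from an animal of the knock-in line called PIGinH11. The PIGinH11 pig carried GIPRdn (a dominant-negative receptor for the incretin hormone GIP), hIAPP (human islet amyloid polypeptide) and PNPLA3I148M (a variant of a lipid droplet protein), inserted at the H11 locus and driven by promoters of beta cells or liver. Both pigs were male and 18 months old, had eaten a control diet up to 6 months of age, and then received a high-fat, high-sucrose diet for 12 months that held 37% sucrose, 53% control diet and 10% lard. Nuclei came from 1 piece of the body of the pancreas per animal. The comparison asks how pancreatic cells of the knock-in animal differ from those of the WT animal on the same diet. With 1 pig per genotype, the genotype, the animal and the library cannot be told apart, and no test between groups was possible. All intervals below are 95% intervals that cover counting error only.

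Translation starts when eIF2, carrying the initiator transfer RNA and GTP, joins the small ribosomal subunit together with eIF1, eIF1A, eIF3 and eIF5. The cap-binding complex eIF4F (the cap binder eIF4E, the scaffold eIF4G and the helicase eIF4A) brings in the messenger RNA, the complex scans to a start codon, and eIF5B joins the large subunit. A pair of controls acts on this pathway: eIF2 kinases phosphorylate eIF2 and thereby block its recycling by the exchange factor eIF2B, and 4E-binding proteins hold eIF4E away from eIF4G. Acinar cells make and export large amounts of digestive enzyme and beta cells of insulin, and both depend on PERK, the eIF2 kinase of the endoplasmic reticulum that EIF2AK3 encodes.

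The members fell into 8 functional groups, and EIF4E1B, the remaining gene, had 6 UMIs in acinar-like nuclei over both libraries. The groups held 4 of 6 listed start codon scanning genes, 4 of 5 listed for the eIF2 ternary complex, 5 of 5 eIF2B subunits, 4 of 4 eIF2 kinases, 11 of 13 eIF3 subunits, 11 of 11 eIF4 genes, 3 of 4 eIF4E inhibitors and carriers, and 3 of 4 genes of subunit joining and eIF5A. The ternary complex group as listed included EIF2A and EIF2D, which are not subunits of eIF2. EIF1AY, EIF5, EIF2S3, EIF3C, EIF3K, EIF4EBP3 and EIF5A matched no symbol in the tables and were not analysed here by symbol. Gene spans in Sscrofa11.1 ran from 2.304 kb (EIF1B) to 359.8 kb (EIF4G3). Another annotated gene overlapped 12 of the members (EIF1AD, EIF1B, EIF2AK1, EIF2AK4, EIF2B2, EIF2B3, EIF2S2, EIF3G, EIF4A2, EIF4E3, EIF4EBP2 and EIF5B), so their counts may include reads of a neighbour, and reads of near-identical copies may be split.

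The WT library held 13619 barcodes and 55784067 UMIs (unique molecular identifiers, 1 per captured molecule), with a median of 3216 per barcode. The PIGinH11 library held 14964 barcodes and 26228811 UMIs, with a median of 1181.5. After filtering, 11854 and 13126 nuclei remained, and 46 of these barcodes occurred in both libraries. Nuclei were clustered without the members and named by marker genes. The 9 acinar markers found summed to 14010 CPM (UMIs of a gene per 1000000 UMIs of the class and library) in WT and 14347 CPM in PIGinH11 acinar-like nuclei, and the 9 ductal markers found summed to 43782 and 35074 CPM in ductal-like nuclei. In every class of at least 20 nuclei per library, each found marker of the class was detected in both libraries. RNA of digestive enzymes took 8.59% and 5.98% of UMIs in acinar-like nuclei and, in the other named classes of that size, 3.02 to 7.82% in WT and 0.522 to 2.62% in PIGinH11. The libraries also differed within acinar-like nuclei in ribosomal protein RNA (0.478% against 0.294%), mitochondrial RNA (0.143% against 0.0541%) and immediate-early and heat-shock RNA (0.109% against 0.0484%). The part of these differences in the member ratios was not tested.

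Summed over all members, initiation factor RNA took a similar share of UMIs in most classes. Without EIF4G3 the alpha-like, beta-like and delta-like sums were the lowest of the named classes compared. In acinar-like nuclei (8434 WT, 9239 PIGinH11) the sum was 3150 CPM (3130 to 3170) in WT and 2913 CPM (2886 to 2940) in PIGinH11, a log2 ratio of -0.11. In ductal-like nuclei (2155 and 2196) it was 2863 and 2663 CPM. Beta-like nuclei (127 and 137) held 2574 and 2658 CPM, endothelial-like nuclei (277 and 528) had sums of 3038 and 2906 CPM, and stellate-like nuclei (200 and 229) 3155 and 3421 CPM. The lowest and highest sums among the 11 named classes compared were 2165 CPM (delta-like) and 3617 CPM (lymphocyte-like) in WT. Without EIF4G3 the sums in WT were 2970 CPM in acinar-like, 2275 in ductal-like, 2038 in alpha-like, 1924 in beta-like and 1474 in delta-like nuclei, and in PIGinH11 2770, 2193, 1742, 1838 and 1730 CPM. Gamma-like nuclei (7 in WT) were too few to compare.

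**Figure D1:**
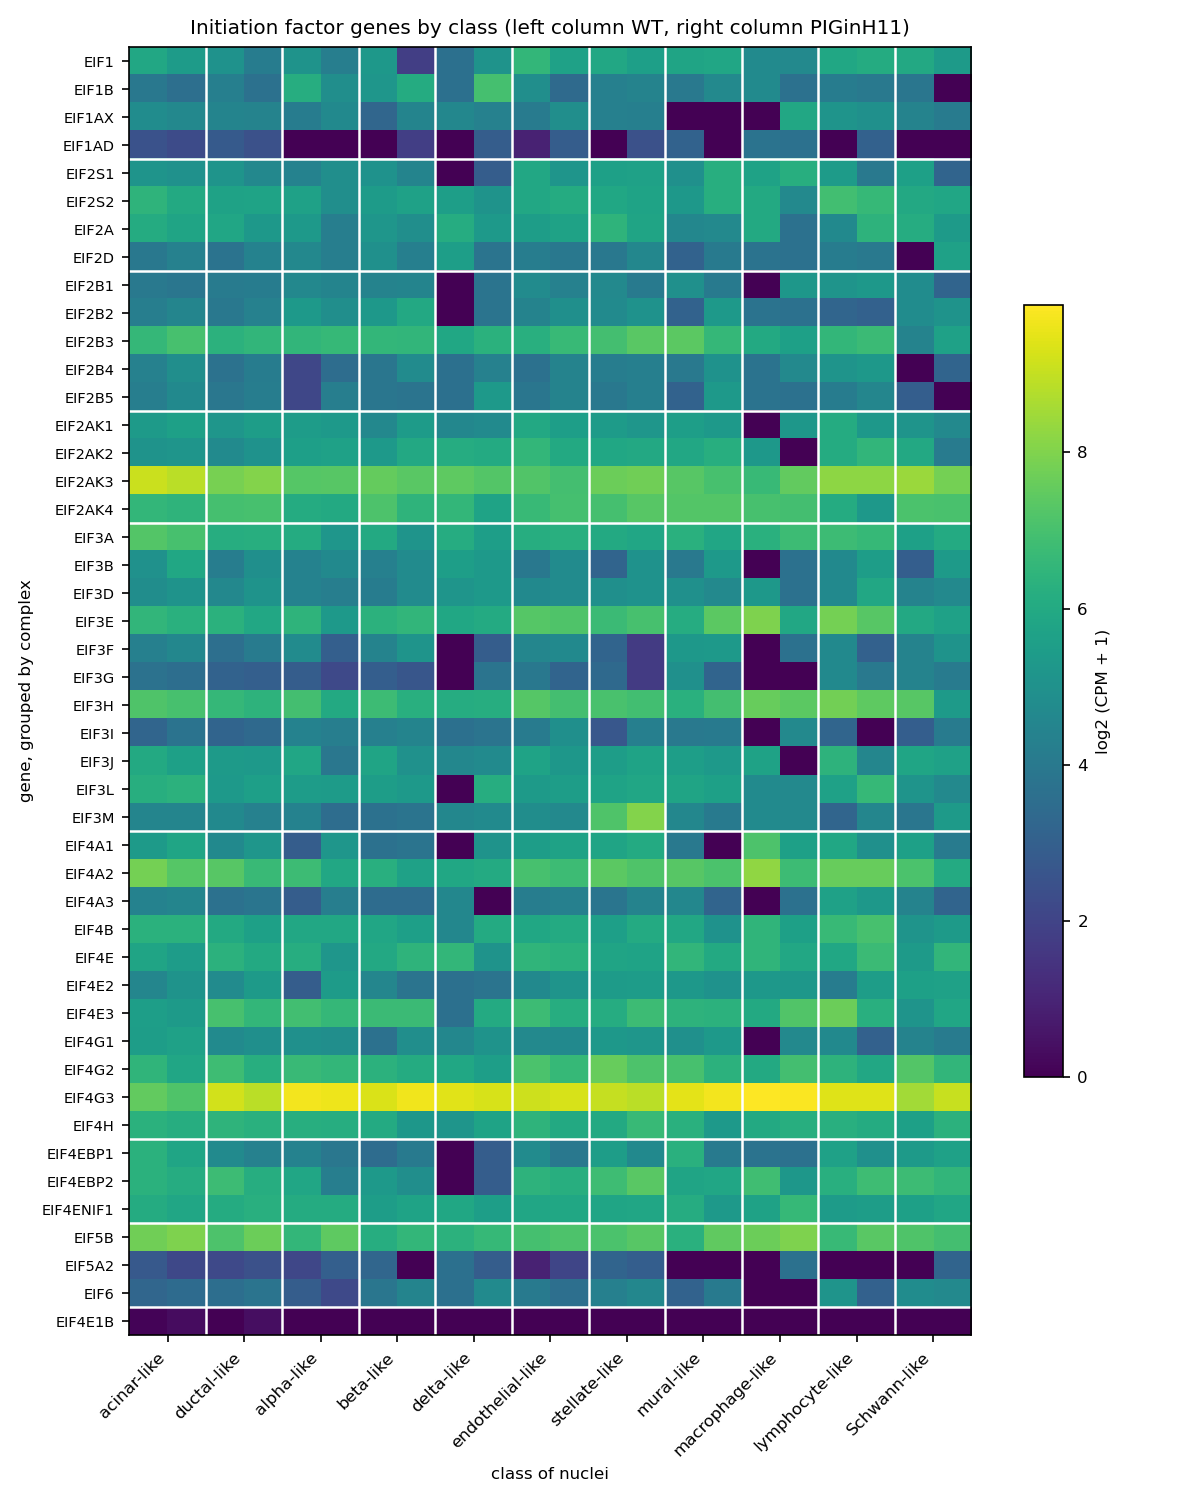
Level of each initiation factor gene (rows, ordered by complex) in each named class and library (columns), as log2(CPM + 1) on the colour scale. EIF4G3 is high in every class outside the acinar-like nuclei, EIF2AK3 is highest in acinar-like nuclei, and EIF3M stands out in stellate-like nuclei of both libraries.

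Because long genes collect more nuclear UMIs, levels of different genes were compared as CPM per kb of gene span. On that scale the EIF4A2 gene (an eIF4A helicase) stood first in its group in acinar-like nuclei, at 34.5 CPM per kb in WT and 24 in PIGinH11. EIF1, the factor that keeps scanning ribosomes from stopping at wrong codons, led the scanning group at 23.2 and 16.5 CPM per kb. The leading members of the other groups lay lower. EIF2AK3 led the kinases at 6.56 and 5.60 CPM per kb, EIF2S2 (eIF2 beta) the ternary complex at 4.495 and 3.36, and EIF2B4 (a regulatory eIF2B subunit) the exchange factor at 4.08 and 6.10. Within eIF3, EIF3A (the largest subunit) led in WT at 3.76 CPM per kb and had 3.27 in PIGinH11, where EIF3F led at 3.61 (2.965 in WT). EIF4EBP1 (a 4E-binding protein) reached 3.89 and 2.75 CPM per kb and EIF5B 3.12 and 3.68. EIF4G3, although abundant in CPM, had only 0.50 and 0.40 CPM per kb, since its span is the longest of the members.

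Single members differed between classes. A member was counted as different from acinar-like nuclei when its CPM differed at least 2-fold in the same direction in both libraries. In ductal-like nuclei 2 of 45 members (EIF4E3 and EIF4G3) were at least 2-fold above acinar-like nuclei and 1 (EIF4EBP1) below, against 12.9% and 11.7% of all genes. Stellate-like nuclei had 4 above (EIF3M, EIF4G2, EIF4G3 and EIF6) and 3 below (EIF2AK3, EIF3A and EIF3F), against 13.8% and 14.2% of all genes. EIF3F rested on 6 and 1 UMIs there. Endothelial-like nuclei had 1 above (EIF4G3) and 3 below (EIF2AK3, EIF3B and EIF4EBP1), against 14.4% and 17.8%. In alpha-like nuclei 3 members lay above (EIF1B, EIF4E3 and EIF4G3) and 6 below (EIF1AD, EIF2AK3, EIF2B4, EIF3A, EIF4A2 and EIF4EBP1), against 13.2% and 19.7% of all genes. Of those below, EIF1AD had 0 UMIs in WT and 0 in PIGinH11 and EIF2B4 had 1 and 3, too few to place. Beta-like nuclei had 4 above (EIF1B, EIF2B2, EIF4E3 and EIF4G3) and 6 below (EIF2AK3, EIF3A, EIF4A1, EIF4A2, EIF4EBP1 and EIF5B), against 14% and 18.8%. With no requirement on the depth of the class, the member shares lay at or under the background in each of these classes. A requirement added after seeing the data was that a gene be expected at 20 UMIs or more in each library at its acinar-like level. Under it 6 of 19 members were lower in beta-like nuclei against 24.9% of genes, and 3 of 11 in alpha-like nuclei against 25%. These shares lay near the background, on few members. On the higher side were 1 of 11 in alpha-like nuclei against 3.84%, 1 of 19 in beta-like nuclei against 4.99% and 2 of 23 in stellate-like nuclei against 4.81%. EIF4G3 alone made up the alpha-like and beta-like counts, and EIF4G3 with EIF4G2 the stellate-like count, so no excess was read from them. The remaining shares stayed under the background, with 2 of 43 higher in ductal-like nuclei against 9.18%, 1 of 43 lower there against 14.5%, 1 of 35 higher in endothelial-like nuclei against 7.78%, 3 of 35 lower there against 21.3%, and 2 of 23 lower in stellate-like nuclei against 19.1%. Over all 10 classes set against the acinar-like nuclei, 30 of 45 members met the rule at least once, against 82.1% of all genes. Under the depth requirement 10 of 43 did so, against 36.7% of genes (EIF2AK3, EIF3A, EIF3B, EIF4A1, EIF4A2, EIF4E3, EIF4EBP1, EIF4G2, EIF4G3 and EIF5B).

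EIF4G3 (chromosome 6, 79022222 to 79382062 in Sscrofa11.1) encodes a scaffold of the eIF4F complex and was the 1 member with a level above the acinar-like nuclei in all 10 other classes and both libraries, a pattern that 0.757% of all genes had. Its level was 180.4 CPM (175.6 to 185.2) in WT and 142.7 CPM (136.8 to 148.7) in PIGinH11 acinar-like nuclei. It reached 588 and 469 CPM in ductal-like, 840 and 790 CPM in alpha-like, 650 and 820 CPM in beta-like and 948 and 917 CPM in macrophage-like nuclei. No acinar-like value overlapped those of another class, whose levels ran from 361.5 to 948.2 CPM in WT and from 467.7 to 917 CPM in PIGinH11. The fold over acinar-like nuclei was 3.26 and 3.29 in ductal-like nuclei, and its largest value by the smaller of the libraries was in macrophage-like nuclei, at 5.26 and 6.43 (75 and 76 UMIs). Among the UMIs of the 3 EIF4G genes, EIF4G3 took 57.5% and 57.2% in acinar-like nuclei, 81.0% and 82.2% in ductal-like nuclei and 87.4% and 89.5% in beta-like nuclei. The other EIF4G genes behaved differently. EIF4G1, the classical scaffold, was lower than in acinar-like nuclei in all 10 classes and both libraries. The small classes held few of its UMIs (0 and 2 in macrophage-like, 4 and 5 in mural-like nuclei). Its mural-like log2 intervals included 0 (-2.44 to 0.80 and -1.93 to 0.93), as did those in delta-like nuclei (-4.01 to 0.89 and -2.24 to 0.62). Those in Schwann-like nuclei (-3.41 to 0.42 and -4.65 to 0.26) and the beta-like interval in PIGinH11 (-1.80 to 0.06) also included 0. The direction of EIF4G1 in classes with few of its UMIs is therefore not resolved. EIF4G2, which supports cap-independent initiation, was 2.15 and 2.40 times its acinar-like level in stellate-like nuclei.

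EIF2AK3 (chromosome 3, 57423894 to 57506247) encodes PERK and had the reverse pattern. Acinar-like nuclei held 540 CPM (532 to 548) in WT and 461.5 CPM (450.9 to 472.3) in PIGinH11. The 10 other classes held 101.1 to 334.2 CPM in WT and 121.2 to 291.7 CPM in PIGinH11, so the ranges did not overlap. A UMI of EIF2AK3 was found in 66.4% (65.4 to 67.4) of WT and 41.7% (40.7 to 42.7) of PIGinH11 acinar-like nuclei, and in 21.5% and 18.5% once each nucleus was thinned to 500 UMIs, which no nucleus fell under. In ductal-like nuclei the thinned shares were 11.0% in each library (46.3% and 25.3% before thinning). Of the UMIs of the 4 eIF2 kinases, EIF2AK3 took 76.3% and 73.2% in acinar-like nuclei, 55.4% and 56.6% in ductal-like nuclei, 47.8% and 46.3% in beta-like nuclei and 36.4% and 34.2% in endothelial-like nuclei. Digestive enzyme RNA was present in all of these classes (3.02 to 7.82% of UMIs in WT), and the part of acinar RNA in their EIF2AK3 level was not tested.

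With EIF2AK3, 5 of 45 members were below acinar-like nuclei in all 10 classes and both libraries, against 4.91% of all genes. The others were EIF3A, EIF4EBP1, EIF4G1 and EIF5B, with few UMIs behind their values in the smallest classes. EIF4EBP1, whose product sequesters eIF4E, was at 79.25 and 55.99 CPM in acinar-like nuclei and at 0.321 and 0.35 of that level in ductal-like nuclei, while its highest other level in WT came close, at 75.93 CPM in mural-like nuclei (10 UMIs). EIF5B was at 215.6 and 254.3 CPM in acinar-like nuclei, against 71.44 to 202.3 CPM and 93.46 to 253.4 CPM in the others, so in PIGinH11 its highest other class came close. EIF3A was at 148.7 and 129.1 CPM in acinar-like nuclei, and at most 108.3 and 108.6 CPM elsewhere.

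**Figure D2:**
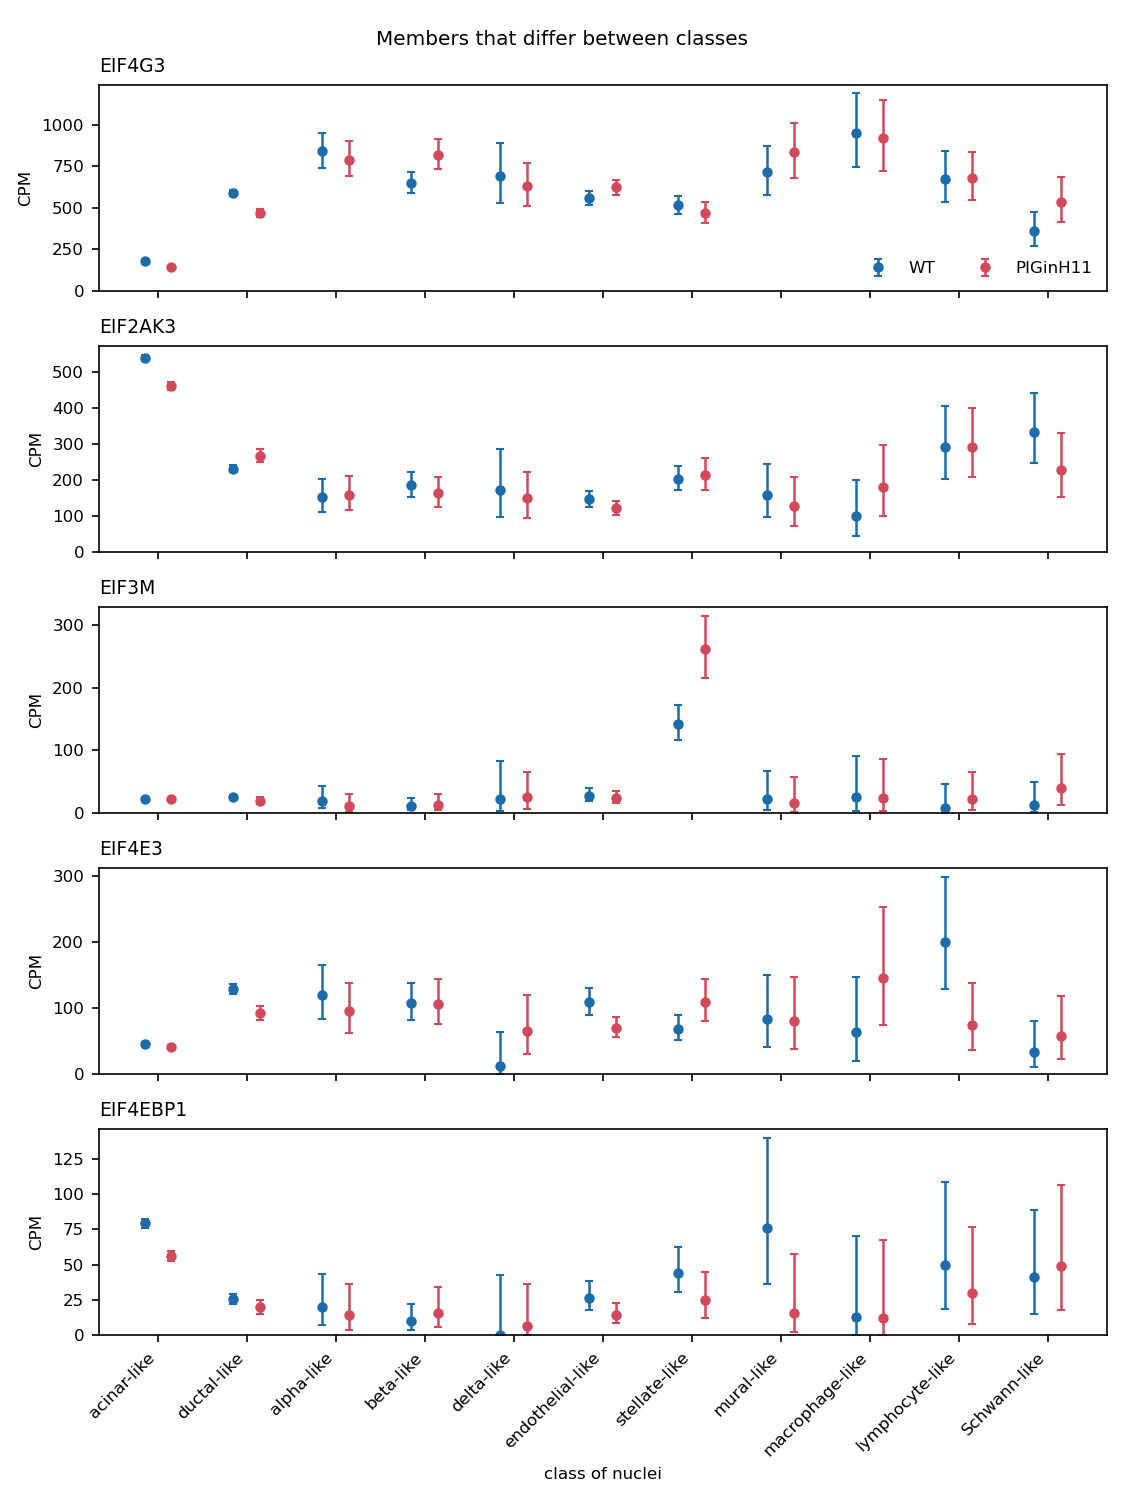
CPM of EIF4G3, EIF2AK3, EIF3M, EIF4E3 and EIF4EBP1 by named class (x axis), 1 point per library with its 95% Poisson interval. EIF4G3 lies lowest in acinar-like nuclei, EIF2AK3 highest there, and EIF3M is at 142 and 262 CPM in stellate-like nuclei and at most 40.8 CPM elsewhere.

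EIF3M (chromosome 2, 28258399 to 28282812), a subunit of eIF3, was the member with the largest fold over acinar-like nuclei. In stellate-like nuclei it was at 142 CPM (116.5 to 172.1; 106 UMIs) in WT and 262 CPM (216.6 to 314.3; 116 UMIs) in PIGinH11. In acinar-like nuclei it was at 21.9 and 21.9 CPM, a fold of 6.49 and 11.9, and in the remaining classes it did not exceed 27.6 CPM in WT and 40.8 CPM in PIGinH11. Stellate-like values therefore lay apart from all other classes in both libraries. EIF3M took 23.7% (19.8 to 27.9) and 34.5% (29.4 to 39.9) of the UMIs of the found eIF3 subunits in stellate-like nuclei, against 3.43% and 3.53% in acinar-like nuclei. A UMI of EIF3M was found in 31.0% and 24.4% of stellate-like nuclei and in 7.02% and 3.40% of acinar-like nuclei (3.5% and 8.30% against 1.16% and 1.29% after thinning to 500 UMIs). The neighbouring gene WT1, a transcription factor gene 129 kb away that was chosen after its values were seen, was at 48.3 and 70.0 CPM in stellate-like nuclei and at most 2.41 CPM in acinar-like, ductal-like and endothelial-like nuclei. CCDC73, 0.305 kb away, was at 5.37 and 0 CPM in stellate-like nuclei. The stellate-like class also held 3669 and 3839 CPM of ductal markers and 2072 and 2377 CPM of acinar markers beside 6851 and 6044 CPM of its own.

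EIF4E3, an atypical cap-binding protein, was the member besides EIF4G3 that was at least 2-fold above acinar-like nuclei in ductal-like, alpha-like and beta-like nuclei. Its level was 45.4 and 40.4 CPM in acinar-like nuclei and 128 and 91.7 CPM in ductal-like nuclei, a fold of 2.82 and 2.27. In alpha-like nuclei the fold was 2.63 and 2.36 and in beta-like nuclei 2.36 and 2.63. Of the UMIs of EIF4E, EIF4E2 and EIF4E3, it took 37.6% and 34.7% in acinar-like nuclei and 54.3% and 47.0% in ductal-like nuclei.

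EIF1B, the paralogue of EIF1, was above acinar-like nuclei in alpha-like and beta-like nuclei, on few UMIs. The fold was 4.84 and 2.53 in alpha-like nuclei (21 and 8 UMIs) and 2.48 and 6.05 in beta-like nuclei (21 and 26 UMIs). Of the UMIs of EIF1 and EIF1B, EIF1B took 19.4% and 20.8% in acinar-like nuclei and 36.3% and 41.7% in ductal-like nuclei. In beta-like nuclei it took 48.8% (33.3 to 64.5) in WT and 96.3% (81 to 99.9) in PIGinH11, of 43 and 27 UMIs. EIF1AD in macrophage-like nuclei (2.75 and 3.15 times the acinar-like level, 2 UMIs in all) and EIF6 in Schwann-like nuclei (3.17 and 2.44 times, 7 UMIs in all) completed the 6 largest folds, but rested on too few UMIs to place. EIF1AD encodes a protein with an eIF1A-like domain, and EIF6 keeps the ribosomal subunits apart.

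The eIF4A helicases were lower in beta-like than in acinar-like nuclei. EIF4A2 in beta-like nuclei was at 0.335 and 0.317 of its acinar-like level (44 and 19 UMIs), and in alpha-like nuclei at 0.491 and 0.386. EIF4A1, its paralogue, was also at least 2-fold lower in beta-like nuclei of both libraries, but on only 7 and 5 UMIs. Its log2 intervals (-3.09 to -0.73 and -3.70 to -0.85) reached inside 2-fold.

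Between the libraries, no member reached a 2-fold difference in acinar-like nuclei. Of 45 members with at least 50 UMIs, 0 were at least 2-fold lower and 0 at least 2-fold higher in PIGinH11, against 2.95% and 16.9% of 15985 genes tested the same way. No count at an unadjusted p exists here, because 1 library per group allows no test. The log2 ratios of PIGinH11 over WT ran from -0.78 to 0.89 with a median of -0.14, while the median over all genes was 0.21. Scaling by the median of ratios, which is less affected by abundant RNA, moved every ratio down by 0.23 and put the member median at -0.37 relative to the typical gene. Below 0 lay 26 members and above 0 lay 19. Relative to the shift 33 lay below and 12 above, with the sign turning for EIF2AK1, EIF2AK2, EIF3L, EIF3M, EIF4A3, EIF4G1 and EIF6. Of all genes 35.6% lay below 0 and 51.4% below the shift. The counting interval of 21 members lay wholly below 0, against 21.8% of all genes, and that of 15 wholly above, against 47% of all genes.

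The scanning group was lower in PIGinH11 acinar-like nuclei under both scalings. Its summed level was 106 CPM in WT and 81.2 CPM in PIGinH11, a log2 ratio of -0.38 (-0.48 to -0.29). All 4 of 4 members lay below 0, against 35.6% of all genes, though the interval of EIF1AD included 0 (-0.73 to 0.18). The sum leaves out EIF1AY, which was found by identifier only, at 136 CPM in WT and 125 CPM in PIGinH11. EIF1 held 59.9 and 42.5 CPM (log2 ratio -0.49). In ductal-like nuclei 4 of 4 lay below 0 again (77.37 and 53.97 CPM summed, log2 ratio -0.52), against 40.5% of all genes. The intervals of EIF1AX (-0.03, -0.45 to 0.38) and EIF1AD (-0.39, -1.33 to 0.46) included 0 there. EIF1 had the lowest ratio of all members in these nuclei, with 32.2 CPM in WT and 16.9 CPM in PIGinH11 (log2 ratio -0.93, -1.37 to -0.51). Relative to the shift this value was -1.08, which is past 2-fold.

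The exchange factor eIF2B, which recharges eIF2 with GTP, had the opposite direction. Its 5 subunits summed to 165.4 CPM in WT and 217.6 CPM in PIGinH11 acinar-like nuclei (log2 ratio 0.395, 0.33 to 0.46). In single subunits 4 of 5 lay above 0 and 1 below, against 35.6% of all genes below 0. Most genes thus lay above 0 too, and no excess was read from this count. EIF2B4 was among the 3 highest ratios of all members, at 19.2 and 28.8 CPM (0.58, 0.40 to 0.76). EIF2B1 was the exception, at -0.14 (-0.38 to 0.10). The direction also held for the sum relative to the shift (0.17) and in the endothelial-like class (0.36, 0.07 to 0.66). In ductal-like nuclei the sums were 138.9 and 158.9 CPM (0.19, 0.04 to 0.34), but the ratio was only 0.04 relative to the shift. The stellate-like (0.29, -0.07 to 0.66) and beta-like (0.25, -0.18 to 0.68) sums had ratios above 0 with intervals that included it. In ductal-like nuclei 0 of 5 subunits lay below 0, against 40.5% of all genes. Each subunit's interval included 0, and no excess was read from this count. EIF2B1 and EIF2B3 turned negative relative to the shift there.

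The ternary complex group summed to 202 CPM in WT and 168 CPM in PIGinH11 acinar-like nuclei (log2 ratio -0.27, -0.33 to -0.20). Of this sum EIF2A held 67.7 and 53.6 CPM and EIF2D 14.7 and 19.1 CPM, and neither is a subunit of eIF2. EIF2S2 and EIF2A lay below 0, and EIF2S1 was at -0.12 with an interval that included 0 (-0.27 to 0.04). EIF2D, a factor for non-canonical delivery of the initiator, lay above at 0.38 (0.16 to 0.59). EIF2S2, at 85.8 and 64.1 CPM, had a ratio of -0.42 (-0.53 to -0.32). EIF2D was also the second highest member in ductal-like nuclei, at 0.64 (0.18 to 1.09; 110 and 66 UMIs).

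The eIF2 kinases summed to 707.6 CPM in WT and 630.7 CPM in PIGinH11 acinar-like nuclei (log2 ratio -0.17), and to 417.6 and 472.2 CPM in ductal-like nuclei (0.18). The acinar-like sum followed EIF2AK3, which had a ratio of -0.23 (-0.27 to -0.19) there and of 0.21 (0.09 to 0.32) in ductal-like nuclei, where it was at 231 and 267 CPM. The other kinases had acinar-like ratios of 0.23 (EIF2AK1, the haem-regulated kinase), 0.09 (EIF2AK2, the double-stranded RNA kinase) and -0.12 (EIF2AK4, the amino acid sensor), and the signs of EIF2AK1 and EIF2AK2 turned relative to the shift.

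Within eIF3 the sum barely differed (639.6 and 620.7 CPM in acinar-like nuclei, log2 ratio -0.04), but the subunits spread widely. Below 0 lay 5 of 11, against 35.6% of all genes. EIF3B (chromosome 3, 1645462 to 1666096), a core subunit with which EIF3G and EIF3I associate, had the highest ratio of all members. Its level was 31.3 CPM (29.3 to 33.3) in WT and 57.9 CPM (54.2 to 61.8) in PIGinH11, a log2 ratio of 0.89 (0.76 to 1.02). In ductal-like nuclei EIF3B was at 17.3 and 29.25 CPM (0.76, 0.37 to 1.14), again the highest, and its share of the UMIs of found eIF3 subunits was 4.89% and 9.33% in acinar-like and 4.17% and 7.02% in ductal-like nuclei. EIF3I was next in the complex in acinar-like nuclei at 0.58 (0.30 to 0.85; 253 and 196 UMIs). EIF3G did not share this direction, at -0.18 with an interval that included 0 (-0.45 to 0.08). EIF3E (chromosome 4, 29288878 to 29343593), another subunit, was lower in PIGinH11. It was at 90.6 CPM (87.2 to 94.1) and 76.6 CPM (72.3 to 81.0) in acinar-like nuclei, a ratio of -0.24 (-0.34 to -0.14), and had a ratio of -0.375 (-0.61 to -0.15) in ductal-like nuclei. In beta-like nuclei EIF3E had 48 and 35 UMIs and a ratio of 0.15 (-0.52 to 0.81), which leaves the direction undetermined.

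The eIF4 group was lower in PIGinH11 in both large classes, at 874.8 and 745.8 CPM in acinar-like nuclei (log2 ratio -0.23, -0.26 to -0.20) and 1307 and 1043 CPM in ductal-like nuclei (-0.325, -0.38 to -0.27). EIF4G2 was at 88.5 CPM (85.2 to 91.9) and 57.3 CPM (53.6 to 61.2) in acinar-like nuclei, a ratio of -0.63 (-0.74 to -0.52), and had the same rounded ratio in ductal-like nuclei. EIF4A2 (chromosome 13, 124582822 to 124589296) was at 223 CPM (217.8 to 228.5) and 155 CPM (149 to 162), a ratio of -0.52 (-0.59 to -0.455). Its paralogue EIF4A1 went the other way, from 40.7 to 54.65 CPM (0.43, 0.30 to 0.55). The share of EIF4A2 in the UMIs of both genes was 84.6% (83.8 to 85.4) in WT and 74.0% (72.4 to 75.5) in PIGinH11 acinar-like nuclei, and 86.3% (84.5 to 88.0) and 74.1% (69.8 to 78.0) in ductal-like nuclei. A share of this kind does not depend on the scaling between libraries. In endothelial-like (74.2% and 68.3%), stellate-like (75.6% and 68.5%) and beta-like nuclei (86.3% and 79.2%) the share was also lower in PIGinH11, but the intervals overlapped. Over the 11 named classes it was lower in 7 and higher in 4 (mural-like, macrophage-like, lymphocyte-like and Schwann-like, each with at most 35 UMIs of both genes per library). Among the 7, alpha-like (35 and 27 UMIs of both genes) and delta-like nuclei (5 and 15) were as thin. EIF4A3, the member of the exon junction complex, had a ratio of 0.13 (-0.07 to 0.32) that turned negative relative to the shift.

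Among the cap binders, EIF4E2 (4EHP, which represses bound messages) took 18.2% (17 to 19.5) of the UMIs of EIF4E, EIF4E2 and EIF4E3 in WT and 28.2% (26.1 to 30.3) in PIGinH11 acinar-like nuclei, and 11.2% and 20.7% in ductal-like nuclei. EIF4E itself had a ratio of -0.30 in acinar-like and -0.37 in ductal-like nuclei. The share of EIF4G3 among the EIF4G genes did not shift in acinar-like nuclei beyond counting error (57.5% and 57.2%), although its CPM ratio was -0.34 (-0.41 to -0.27).

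**Figure D3:**
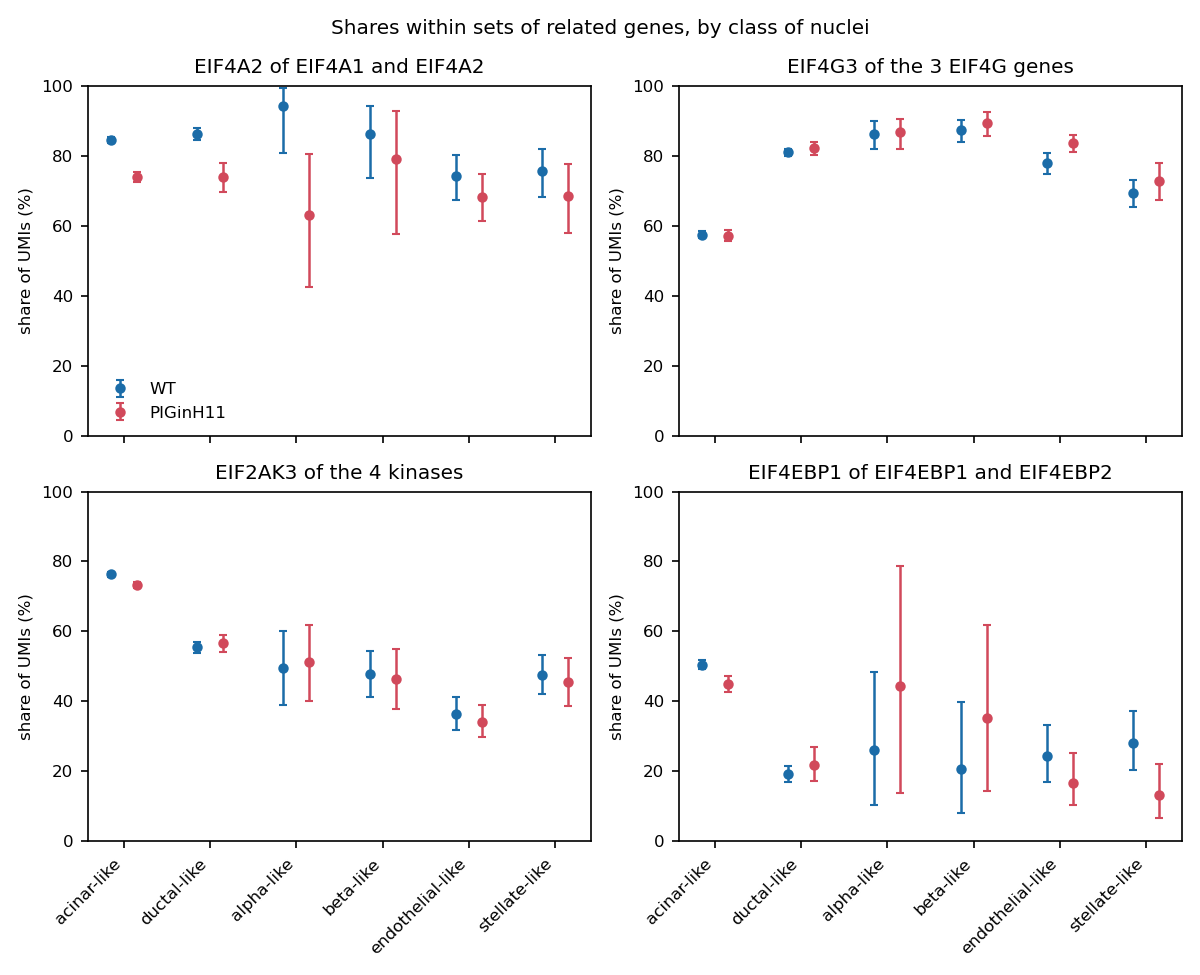
Share of UMIs (percent) taken by 1 gene within its paralogue group in each named class, 1 point per library with its 95% Clopper-Pearson interval. EIF4A2 takes 84.6% and 74.0% of the EIF4A1 and EIF4A2 UMIs in acinar-like nuclei of WT and PIGinH11, and wide intervals mark the small classes.

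The 3 eIF4E inhibitors and carriers were lower in PIGinH11 acinar-like nuclei (224.5 and 181 CPM summed, log2 ratio -0.31), with EIF4EBP1 at -0.50 and EIF4EBP2 at -0.18. In ductal-like nuclei EIF4EBP2 was at -0.615 (-0.83 to -0.41) and EIF4ENIF1, the nuclear carrier of eIF4E, at 0.13 before and -0.03 relative to the shift. In the last group EIF5B was at 215.6 and 254.3 CPM in acinar-like nuclei (0.24, 0.18 to 0.30), but at only 0.01 relative to the shift. In ductal-like nuclei its ratio was 0.57, and 0.41 relative to the shift. EIF5A2, a paralogue of the elongation and initiation factor eIF5A, had the lowest acinar-like ratio of all members, at 5.79 and 3.38 CPM (-0.78, -1.25 to -0.33). It rested on 175 and 53 UMIs and passed 2-fold relative to the shift, by a narrow margin (-1.005).

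**Figure D4:**
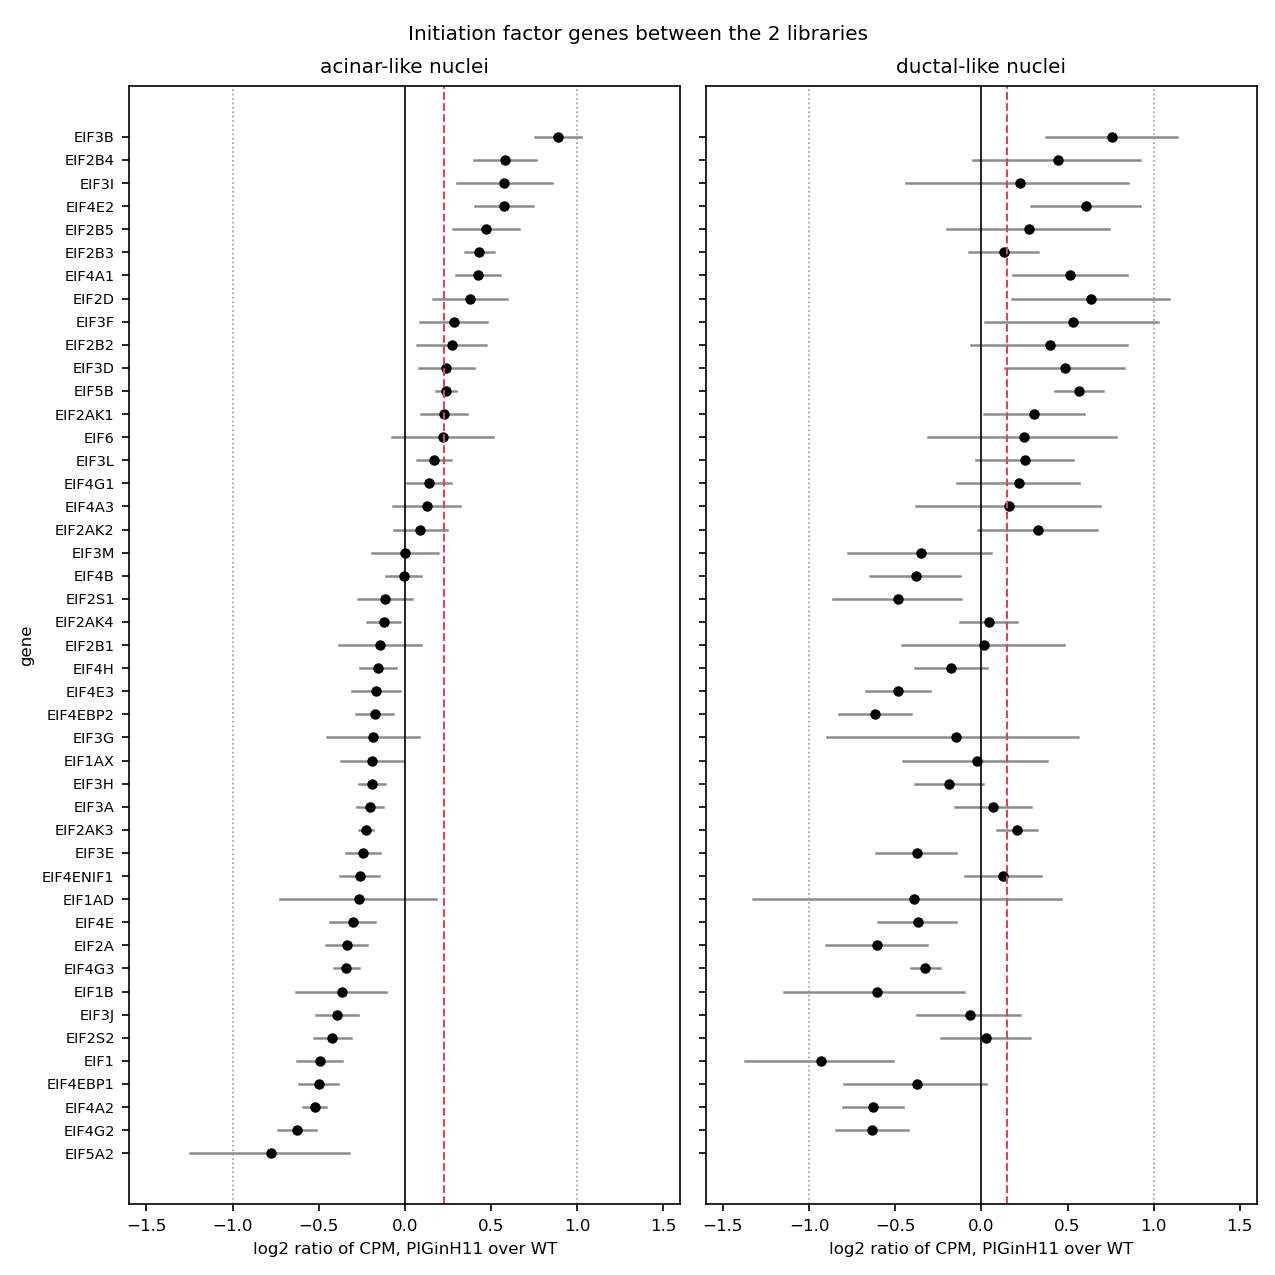
Log2 ratio of PIGinH11 over WT for each member counted in acinar-like and ductal-like nuclei, with 95% counting intervals, ordered by the acinar-like ratio. The solid line marks 0, the dashed line the median-of-ratios shift of the class and the dotted lines 2-fold. Every point lies within 2-fold, EIF3B is highest in both classes, and EIF1 is lowest in ductal-like nuclei at -0.93.

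Ratios were also read in each of the 6 acinar-like clusters, whose nuclei differed in depth and enzyme content. In all 6 clusters 8 of 45 members were lower in PIGinH11 (EIF1, EIF1AX, EIF2AK3, EIF2S2, EIF4E, EIF4EBP1, EIF4G2 and EIF5A2), against 9.02% of all genes. In all 6 clusters 9 were higher (EIF2B2, EIF2B3, EIF2B5, EIF2D, EIF3B, EIF3I, EIF3L, EIF4A1 and EIF5B), against 24.5% of all genes. Both lists read only the sign of each ratio, not its interval or the shift. The interval of EIF1AX included 0 in every cluster, and EIF5A2 had as few as 20 and 1 UMIs in a cluster. Over all acinar-like nuclei EIF3L was at -0.06 and EIF5B at 0.01 relative to the shift. EIF3B ranged from 0.62 to 1.09 over the clusters. EIF4A2 was lower in 5 clusters, and higher in PIGinH11 by 0.31 on the log2 scale in the cluster with the most enzyme RNA, where enzymes took 24.3% of UMIs in WT and 12.4% in PIGinH11. EIF3E was below 0 in the same 5 clusters and at 0.16 in the enzyme-richest one, where its interval included 0 (-0.26 to 0.57). The sum of all members was also higher in PIGinH11 in that cluster (2661 and 2968 CPM), so the split was not particular to these genes. The part of enzyme RNA in this was not tested.

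Gene span did not order the acinar-like ratios of the members in 1 direction. The median ratio was 0.22 in the 11 members under 10 kb, -0.31 in the 6 of 10 to 20 kb, 0.00 in the 15 of 20 to 40 kb, -0.205 in the 8 of 40 to 80 kb and -0.19 in the 5 longer ones. All genes had medians of 0.11 in the shortest and 0.285 in the longest of these bins.

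In ductal-like nuclei 0 of 44 members counted were past 2-fold, against 3.04% of 11854 genes lower and 10.5% higher. The member median was 0.035 and that of all genes 0.12, with 20 members below 0 and 24 above (40.5% of all genes lay below 0). Relative to the shift of 0.15, 26 lay below and 18 above, with EIF2AK4, EIF2B1, EIF2B3, EIF2S2, EIF3A and EIF4ENIF1 turning sign. Counting intervals lay wholly below 0 for 12 members, against 17.4% of genes, and wholly above for 9, against 32.9%. Ductal-like nuclei of the libraries differed little in immediate-early and heat-shock RNA (0.155% and 0.159%) but differed in enzyme RNA (3.28% and 0.949%), and its part in the ratios was not tested.

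Beta-like nuclei, the endocrine cells whose promoters drive part of the knock-in, had 14 members with 50 UMIs or more. None was past 2-fold, against 3.07% of 3740 genes lower and 3.88% higher. The median ratio was -0.22, with 10 of 14 below 0, against 46.4% of all genes. EIF3A (37 and 13 UMIs, -0.90, -1.94 to 0.05) and EIF4H, a cofactor of eIF4A (38 and 14 UMIs, -0.83, -1.83 to 0.09), were lowest. EIF4E (36 and 33 UMIs, 0.48, -0.24 to 1.21) and EIF5B (42 and 36 UMIs, 0.39, -0.30 to 1.07) were highest, and all 4 intervals included 0. EIF4G3, with 382 and 316 UMIs, was at 650 and 820 CPM (0.34, 0.12 to 0.56). EIF2AK4 was at -0.70 (-1.33 to -0.10), and EIF4A2 at -0.60 (-1.46 to 0.21) was not resolved at this depth.

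In endothelial-like nuclei 34 members were counted, with a median ratio of 0.06 and a range from -0.89 (EIF1) to 0.82 (EIF3I). In stellate-like nuclei 26 were counted, with a median of 0.08. EIF3M had the highest ratio there, at 0.88 (0.49 to 1.28).

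Other genes of the translation pathway were read from a list of 43, of which 38 were found and 37 counted in acinar-like nuclei. At least 2-fold lower in PIGinH11 were 4 of 37, against 2.95% of all genes, and 1 was at least 2-fold higher, against 16.9%. The 4 lower genes are all targets of the integrated stress response, the programme that ATF4 drives when eIF2 is phosphorylated. CHAC1, a glutathione-degrading enzyme, was at 12.9 CPM in WT and 0.893 CPM in PIGinH11 (log2 ratio -3.86), and TRIB3, SESN2 and ATF3 had ratios of -2.33, -1.70 and -1.42. ATF3 is also on the list of immediate-early and heat-shock genes, whose RNA took 0.109% and 0.0484% of acinar-like UMIs. ATF4 itself was at 159.9 and 125.4 CPM (-0.35). The higher gene was TSC2, an inhibitor of mTOR signalling, at 22.0 and 49.9 CPM (1.18). Of the 10 stress response genes counted in acinar-like nuclei, 7 lay below 0, against 35.6% of all genes. The other 3 lay above, up to GCN1, an activator of EIF2AK4, at 0.51. The summed ratio of the 10 genes was -0.23. In ductal-like nuclei 3 of 7 stress response genes lay below 0, against 40.5% of all genes, with SESN2 lowest (-1.005) and ATF3 highest (1.05).

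A cluster of 349 WT and 163 PIGinH11 nuclei, in which digestive enzymes took 60.4% and 17.7% of UMIs, was left unnamed. Members summed to 1348 CPM (1285 to 1412) there in WT and 2707 CPM (2449 to 2985) in PIGinH11, a log2 ratio of 1.01. Of 17 members counted, 0 were at least 2-fold lower and 6 at least 2-fold higher in PIGinH11, against 8.64% and 64% of 1284 genes. The shift in this cluster was 2.72, and 16 of 17 members lay below it, against 67.1% of all genes. Ratios here rose with span, from a median over all genes of -0.50 under 10 kb to 2.92 from 80 kb upward. EIF2AK3 had the highest ratio, at 3.04 (39 and 37 UMIs).

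Set against acinar-like nuclei of the same library as a difference of log2(CPM + 5), short members were relatively high in this cluster and long members low. In WT the highest were EIF3F (1.795), EIF1 (1.45) and EIF3G (1.44), and the lowest EIF2AK3 (-3.95), EIF2B3 (-3.63), EIF2AK4 (-3.04) and EIF4G3 (-2.93). The median was -0.245 for members under 10 kb, -1.01 for 10 to 40 kb and -2.015 for longer ones, and all genes had -0.44, -1.16 and -2.245 in the same bins. In PIGinH11 the member medians were 0.41, 0.15 and -0.62, against 0.46, -0.04 and -0.51 for all genes. Across the 45 members, Spearman's rho between span and this difference was -0.71 in WT and -0.56 in PIGinH11, given as a description since members share their libraries. Ribosomal protein RNA (2.32% and 1.19%) and mitochondrial RNA (0.443% and 0.182%) were also higher than in acinar-like nuclei, and their part was not tested.

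**Figure D5:**
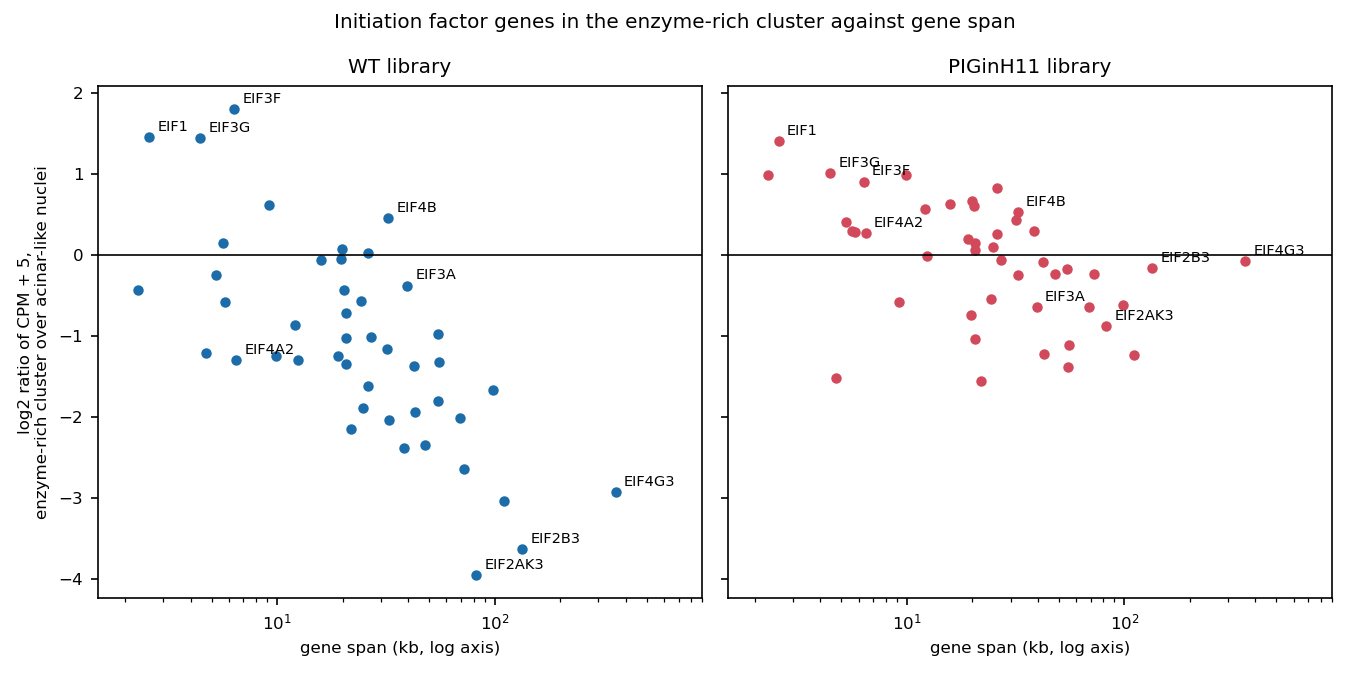
Difference of log2(CPM + 5) between the unnamed enzyme-rich cluster and acinar-like nuclei (y axis) against gene span in kb (x axis, log scale), 1 point per member, WT and PIGinH11 in separate panels. In both libraries all 13 members of 40 kb or more lie below 0, and the slope is shallower in PIGinH11.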

How the data were processed

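Nuclei of 1 pancreas piece per pig were sequenced with the 10x Genomics 3′ v3.1 kit. The authors deposited 1 matrix of UMI counts per library, unnormalized, made with Cell Ranger (version 3.1.0 in the methods, 5.0.0 in the file header); whether counting used strand or multiply mapped reads is not given in the sources used here. Barcodes with 270 to 3700 genes, under 13000 UMIs and under 10% mitochondrial UMIs were kept, the methods' printed UMI limit of 1300 being an alternative. The top-scoring barcodes were removed as doublets (Scrublet in scanpy 1.11.5), at a rate of 0.8% for every 1000 barcodes in the library. This rate marked 1484 WT and 1791 PIGinH11 barcodes. Counts were scaled to 10000 per nucleus, corrected between libraries with Harmony and clustered (Louvain, resolution 1, 2000 variable genes, 30 components). Members, other translation, ribosomal protein, mitochondrial and digestive enzyme genes did not enter the choice of variable genes. A cluster was called "X-like" where at least 3 markers fixed for X led it.

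UMIs were summed per class and library, members with at least 50 UMIs over both libraries were counted, and past 2-fold means a log2 ratio of at least 1 in size. Intervals are exact (Poisson, conditional binomial, Clopper-Pearson, with scipy 1.17.1) and their width is set by the UMIs behind each value. Only the interval of the log2 ratio and the 2-fold call were tried on simulated UMI sums. The other steps, among them clustering, naming of classes and thinning, were not. Named in full were EIF4A2 and EIF3E, which the study names, the 3 highest and lowest ratios in acinar-like and 2 in ductal-like and beta-like nuclei, the 6 largest folds over acinar-like nuclei, the leading member per kb of each group, and paralogue groups. Members and lists were chosen with earlier results of these data known. Gene positions are from RefSeq's Sscrofa11.1 table, in which all 46 members matched. Alternatives changed UMI minimum, scaling, weighting, thinning, doublet removal, filters on nuclei and clustering. No sequence is shown.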

Additional observations from a re-analysis of the deposited data

Results flagged for a closer look

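EIF2AK3, which encodes PERK, had log2 ratios of PIGinH11 over WT of opposite sign in the 2 largest classes, with counting intervals that both excluded 0. The value was -0.23 in acinar-like nuclei and 0.21 in ductal-like nuclei, and relative to the median-of-ratios shift of each class it was -0.455 and 0.06. With the UMI limit of 1300 the values were 0.05 and 0.24, so the opposite sign was lost. The difference between the classes was not tested, since each genotype has 1 library.

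A gene outside the symbol rule carried signal. ENSSSCG00000037509, listed in the count tables by identifier only and named EIF1AY in the reference name table, had 5976 UMIs in all WT barcodes and 2716 in all PIGinH11 barcodes. In acinar-like nuclei it was at 136 CPM (131.5 to 139.8) in WT and 125 CPM (119.8 to 130.9) in PIGinH11, against 27.1 and 23.7 CPM for its paralogue EIF1AX. Reads of near-identical copies can be assigned to either gene.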

How the results depend on the processing

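The count of members past 2-fold in acinar-like nuclei was 0, and became 1 with no UMI minimum, 1 under median-of-ratios scaling, 1 with nuclei thinned to 500 UMIs and 3 with the UMI limit of 1300. In ductal-like nuclei it went from 0 to 1, 1, 1 and 2 under the same settings. In beta-like nuclei it went from 0 to 1 with a minimum of 20 UMIs, 5 with no minimum and 1 as a mean over nuclei. The 30 members past 2-fold over acinar-like nuclei in any class became 10 with the UMI limit of 1300, which left 2 classes to set against the acinar-like nuclei, and 10 where 20 UMIs were expected in each library, an alternative chosen after seeing the data. Adding the unnamed enzyme-rich nuclei to the acinar-like class, also chosen after seeing the data, kept the 3 counts between libraries at 0. The acinar-like median of -0.14 ranged from -0.37 (median of ratios) to 0.06 (UMI limit of 1300). That limit left 1512 and 5156 acinar-like, 276 and 1368 ductal-like and 6 and 40 beta-like nuclei, so no member was counted in beta-like nuclei. Of 332 values of 13 named members in acinar-like and ductal-like nuclei, 290 stayed inside their counting interval. This count includes the changed UMI minima, which cannot move the ratio of a member, so it overstates stability. The 4 that turned sign were EIF2AK3 (0.05) and EIF4G3 (0.11) in acinar-like nuclei with the UMI limit of 1300, EIF4E2 in ductal-like nuclei after thinning (-0.06) and EIF3I in ductal-like nuclei as a mean over nuclei (-0.05). Past 2-fold were EIF3B (1.02) in acinar-like nuclei and EIF4A1 (1.03) in ductal-like nuclei after thinning, EIF1 in acinar-like (-1.02) and EIF3B in ductal-like nuclei (1.22) with the UMI limit of 1300, and EIF1 in ductal-like nuclei under median-of-ratios scaling (-1.08). No paired analysis was possible because each group has 1 library. Depth limits the small classes most: 14 members reached 50 UMIs in beta-like nuclei and 45 in acinar-like nuclei.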

Other observations

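Other parts of the translation machinery differed by group in acinar-like nuclei, as values without a test. A list of 9 signalling genes, most of the mTOR pathway, summed to 1359 CPM in WT and 1621 CPM in PIGinH11 (log2 ratio 0.25, 0.23 to 0.28). It mixed mTOR inhibitors (TSC1 and TSC2) with other genes and held 2 kinase genes outside that pathway, MKNK1 and MKNK2. Relative to the median-of-ratios shift the ratio was only 0.03. Below 0 lay 4 of 9 genes, against 35.6% of all genes, with MKNK2 lowest at -0.475. The same genes summed in ductal-like nuclei to 635.5 and 791.8 CPM (0.32, 0.25 to 0.39), where TSC1, the partner of TSC2 in the mTOR-inhibiting complex, was at 48.2 and 85.9 CPM. Termination and recycling genes summed to 283.3 and 220.2 CPM in acinar-like nuclei (-0.36), with 5 of 5 below 0. Of all genes 35.6% lay below 0 in these nuclei, and 51.4% below the shift. A list of helicases and cap-proximal factors (DDX3X, DHX29, LARP1 and PDCD4) summed to 2047 and 1764 CPM (-0.215), also with 4 of 4 below 0. These genes do not all promote scanning, so the sum gives no direction for that step. Elongation factor genes summed to 354 and 353 CPM (0.00).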
